A study of Mus musculus with 5 samples.

Results

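Levels of 7 genes of naive and recirculating lymphocytes were measured in single immune cells of the mouse aortic arch: Tcf7, Lef1, Satb1, Bach2, Klf2, Ccr7 and S1pr1. The set was given by name, and all 7 were found among the 26189 genes of the tables. No gene of the set was used to assign a cell to a type. Their levels were described across T cell subsets, thymocyte-like cells and B cells, and between the pools of cells from both genotypes.

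TCF1 (encoded by Tcf7) and LEF1 are DNA-binding partners of beta-catenin that establish T cell identity in the thymus and are kept by naive T cells, while SATB1 organises chromatin in thymocytes and naive T cells and BACH2 represses effector genes in T and B cells. KLF2 is a zinc-finger factor known to drive transcription of S1pr1, the sphingosine-1-phosphate receptor through which lymphocytes leave thymus and lymph nodes. CCR7 is the receptor for CCL19 and CCL21 and brings naive lymphocytes and mature dendritic cells into lymph nodes.

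The arch cells came from female mice that were 12 weeks old when atherosclerosis was induced with a single injection of an adeno-associated virus, and that then ate Western diet for 18 weeks. Live CD45+ cells were sorted and captured on the BD Rhapsody whole-transcriptome platform, with the genotypes kept apart by sample tags. The genotypes were C57BL/6J wild-type and Saa3-/- (the Saa3tm1.1(KOMP)Vlcg allele, on C57BL/6N), described as littermates, and virus and diet were given to both. Each genotype was 1 pool of cells, the number of mice in a pool is not given in the sources used here, and the 4 cultured macrophage samples of the series were not analysed here.

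After removal of cells with more than 25% mitochondrial molecules, 833 of 889 cells remained in the pool labelled wild-type and 823 of 854 in the pool labelled Saa3-/-, with 7289593 and 5231922 molecules and medians of 6415 and 4698 per cell. No cell index was shared between the pools. Saa3 itself did not settle the labels: its level was 148 molecules per 1000000 molecules (CPM; 95% Poisson interval 139 to 157) in the pool labelled wild-type and 242 (229 to 256) in the pool labelled Saa3-/-, where 2 cells held 1124 of the 1268 molecules. Without the 2 highest cells of each pool the order turned, with 96.2 (89.2 to 103.6) and 27.8 (23.5 to 32.8) CPM. The pools are therefore named by their labels throughout. With 1 pool per genotype no test was made, and every interval below is a 95% interval that covers counting error only.

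Cells were assigned from marker genes. Among T cells, thymocyte-like cells (93 cells) held at least 2 of Rag1, Rag2, Dntt, Ptcra and Arpp21. Cd4 together with Cd8 was found in 74 of them (79.6%), and Mki67 or Top2a in 45 (48.4%). Gamma-delta T cells (92 cells) were led by Trdc, and 87 of them held Tcrg-C1. Cytotoxic T cells (90 cells) held at least 2 of Ccl5, Nkg7, Gzmk, Gzma, Gzmb and Prf1. Activated T cells (45 cells) held at least 2 of 9 activation or tissue-residency genes, and "unmarked" T cells (62 cells) passed none of these gates. A gate of Foxp3, Ikzf2, Il2ra and Ctla4 took 61 cells, but Foxp3 was found in only 9 of them and 25 held more Cd8 than Cd4 molecules, so these are called Ikzf2/Ctla4/Il2ra-marker T cells and not regulatory T cells. B cells numbered 166, of which 141 held Ighd or Fcer2a and are called follicular-marker B cells.

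Counting included intronic reads, so a long gene with much intron adds unspliced molecules. On GRCm38, introns made up 97.1% of Bach2 (chr4:32238804-32586108, plus strand), 92.3% of Lef1 (chr3:131110471-131224356, plus), 91.4% of Tcf7 (chr11:52252371-52283014, minus), 81.8% of Ccr7 (chr11:99144196-99155077, minus) and 80.4% of Satb1 (chr17:51736187-51833290, minus). They made up 34.4% of S1pr1 (chr3:115710433-115715072, minus) and 29.6% of Klf2 (chr8:72319033-72321656, plus). Tcf7, Lef1, Satb1 and Bach2 each overlap an antisense gene, and as the use of strand in counting is not stated, reads of the partners cannot be told apart. Levels were for this reason compared between cells and not between genes.

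Start-site windows of RefSeq (GRCm38.p6) were matched for 5 of the 7 genes, 13 windows in all, with 2 for Tcf7, 4 for Lef1, 5 for Satb1 and 1 each for Klf2 and Bach2. Klf2 is shown because its level followed the other 6 the least across cell classes. Its window was the only 1 of the 13 with CTANNNNTAG, where N is any base, a looser pattern than the motif bound by MEF2 factors. The pattern reads the same on both strands and was found in 1052 of 32851 windows of 250 bases (3.20%). It was chosen after the window had been read. Bach2 is shown because its window, ahead of a start inside the gene, held CTTTGA, the core bound by TCF and LEF factors, which on the other strand reads TCAAAG; 1 of the 4 windows of Lef1 held it too. It was found in 4544 of 32851 windows (13.8%). Capitals mark these letters, a match is a description and not a binding site, and the windows are the 221 bases of chr8:72318812-72319032 and the 250 bases of chr4:32417185-32417434, both on the plus strand.
Klf2: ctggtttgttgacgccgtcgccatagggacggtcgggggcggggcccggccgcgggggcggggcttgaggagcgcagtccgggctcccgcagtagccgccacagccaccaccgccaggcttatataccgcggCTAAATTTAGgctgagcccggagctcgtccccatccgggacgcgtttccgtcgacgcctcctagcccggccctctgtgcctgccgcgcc
Bach2: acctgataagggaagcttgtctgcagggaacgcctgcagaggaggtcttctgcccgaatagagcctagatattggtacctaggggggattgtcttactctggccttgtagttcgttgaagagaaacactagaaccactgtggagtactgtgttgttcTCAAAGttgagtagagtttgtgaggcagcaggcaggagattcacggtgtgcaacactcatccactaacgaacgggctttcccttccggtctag

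The unmarked T cells were the class with the broadest expression of the set. Levels in them, first in the pool labelled wild-type (17 cells) and then in the pool labelled Saa3-/- (45 cells), were 1066 (823 to 1359) and 1051 (901 to 1220) CPM for Tcf7. Lef1 stood at 869 (651 to 1137) and 804 (673 to 952) CPM. Satb1 stood at 1558 (1261 to 1905) and 1631 (1442 to 1838) CPM. The pools overlapped for each of these transcription factors. Bach2 stood at 640 (455 to 874) and 508 (405 to 628) CPM and Klf2 at 410 (265 to 605) and 326 (245 to 426) CPM. Of the receptors, Ccr7 stood at 361 (226 to 546) and 447 (351 to 561) CPM and S1pr1 at 131 (56.6 to 259) and 169 (112 to 244) CPM. S1pr1 rested on 8 and 28 molecules, the fewest of the set in these cells.

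The unmarked cells were themselves mixed. By co-receptor, 27 held more Cd4 than Cd8 molecules, 18 more Cd8 than Cd4 and 17 neither. Satb1 was 3.31-fold higher (2.38 to 4.70) in the CD4 than in the CD8 cells, at 1725 against 1037 CPM in the pool labelled wild-type, where the interval of the ratio reached 0.997, and at 2272 against 438 CPM in the pool labelled Saa3-/-. Among genes with at least 20 molecules over both subsets, it was the only 1 of the 7 past 2-fold, against 13.3% of all genes higher and 4.04% lower. The pools did not give the same genes. In the pool labelled Saa3-/- Satb1 alone was past 2-fold of 7 compared (17% of all genes higher, 5.87% lower). In the pool labelled wild-type, of 6 compared, Ccr7 was higher, on 16 and 4 molecules, and Klf2 and Bach2 lower, where 9.76% of all genes were higher and 8.4% lower. Of the 16 Ccr7 molecules 12 were in 1 cell, and the gene was found in 4 of 8 CD4 and 3 of 6 CD8 cells. Klf2 was lower in the CD4 cells, at 0.520 times (0.314 to 0.853) its level in the CD8 cells. In 28 of the 62 unmarked cells a molecule of Cd24a, Ccr9 or a thymocyte gate gene was found, here called immature markers. In those 28 cells Klf2 stood at 196 CPM (122 to 300), against 485 CPM (368 to 627) in the other 34. S1pr1 stood at 84.2 CPM (38.5 to 160) and 226 CPM (149 to 329), on 9 and 27 molecules, and these intervals overlapped. Lef1 had the opposite order, with 1038 CPM in the cells with such a marker and 627 CPM in those without.

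Over both pools, Tcf7, Lef1, Satb1, Bach2 and Ccr7 were more than 2-fold higher in unmarked than in cytotoxic T cells. Klf2 and S1pr1 were not, and their intervals over both pools held equality. With the same count of ratios past 2-fold, 5 of the 7 genes were higher in unmarked cells and none lower, over both pools and in each pool alone. Over all genes compared, 7.41% were 2-fold higher (8.7% and 9.01% in the single pools) and 10.1% lower (13.7% and 10.3%), so the count of 5 of 7 was above the background. The median log2 ratio of the 7 was 1.62, against 0.03 over all genes.

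Ccr7 had the widest ratio of the set. Its 96 molecules in the unmarked T cells compared with 12 in the cytotoxic T cells, where 8 were in the pool labelled wild-type (41.8 CPM, 18.0 to 82.4) and 4 in the pool labelled Saa3-/- (interval 5.17 to 48.6 CPM). Unmarked cells were 14.2-fold higher (7.77 to 28.4). Lef1 was 8.06-fold higher (5.72 to 11.6), with cytotoxic cells at 131 and 75.9 CPM. Satb1 was 5.54-fold higher (4.49 to 6.88), with cytotoxic cells at 319 and 266 CPM. The counting intervals of these levels did not overlap between the classes in either pool. In the pool labelled wild-type 12 of the 16 Ccr7 molecules of unmarked CD4 cells were in 1 cell. With each cell reduced to 1500 molecules, the shares of cells overlapped in that pool for Ccr7 and Lef1. Ccr7 was found in 4 of 17 unmarked (6.81 to 49.9%) and 2 of 39 cytotoxic cells (0.627 to 17.3%). Lef1 was found in 9 (27.8 to 77.0%) and 7 (7.54 to 33.5%) of them.

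Tcf7, which memory T cells also keep, had a smaller ratio of 3.08 (2.48 to 3.82), and cytotoxic T cells still held 434 and 261 CPM. Bach2 had the same ratio, 3.08 (2.28 to 4.18), with cytotoxic cells at 219 and 138 CPM. For Klf2 the ratio was 1.28 (0.943 to 1.72): its log2 ratio was 0.91 in the pool labelled wild-type and 0.02 in the pool labelled Saa3-/-. S1pr1 stood at 99.3 and 109 CPM in cytotoxic T cells, 1.52-fold (0.947 to 2.43) below the unmarked cells. Over both pools the intervals for Klf2 and S1pr1 held equality and, for S1pr1, also a 2-fold difference. With the 28 cells holding an immature marker left out, the log2 ratio for Klf2 moved from 0.35 to 0.83.

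Macrophage markers differed little between these classes. The summed level of the macrophage genes C1qa, C1qb, C1qc and Lyz2 was 1247 and 1015 CPM in unmarked and 1040 and 982 CPM in cytotoxic T cells. Cells with at least 3 markers of a second lineage were 28 of 90 cytotoxic (31.1%) and 2 of 62 unmarked T cells, but the NK list shares Nkg7, Gzma and Prf1 with the cytotoxic gate. With the NK list left out they were 1 of 90 and 2 of 62.

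**Figure D1:**
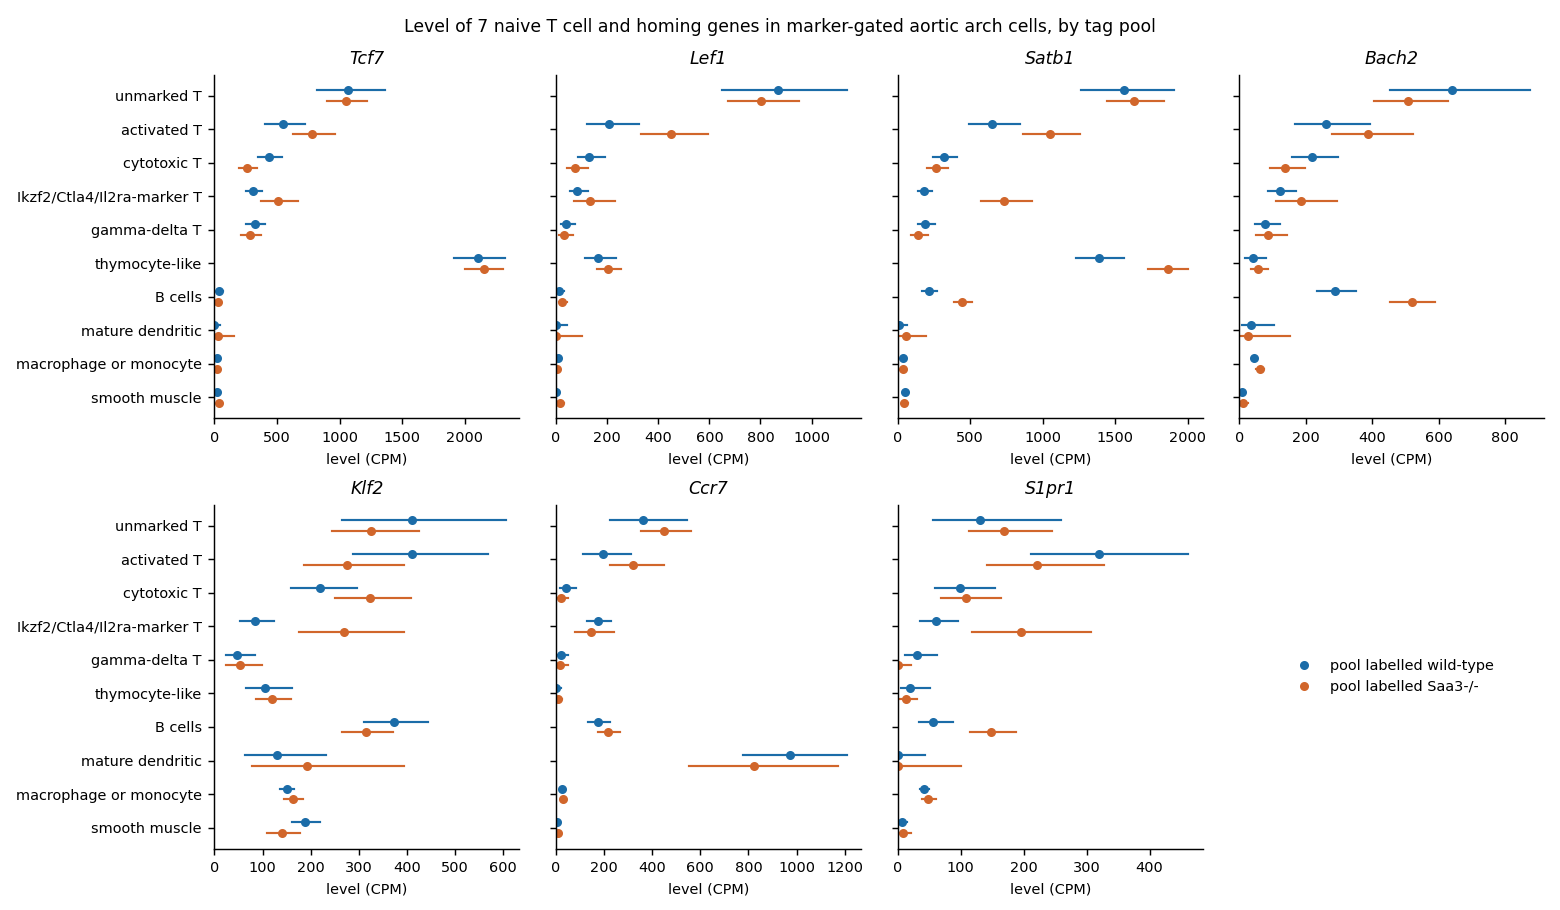
Level of each gene (x axis, CPM, a separate linear scale for each gene) by cell class (y axis), with 1 point for each tag pool and its 95% Poisson counting interval as a bar. Tcf7 was highest in thymocyte-like cells, Lef1 in unmarked T cells and Ccr7 in mature dendritic cells, and Satb1 was high in both unmarked T cells and thymocyte-like cells.

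The activated T cells came closest to the unmarked ones. Only Lef1 was past 2-fold between them, 2.41-fold higher (1.81 to 3.24) in unmarked cells, where 5.39% of all genes were higher by that much and 5.84% lower. By pool the count was 3 higher and 1 lower in the pool labelled wild-type (7.75% and 10.7% of all genes) and 0 in either direction in the pool labelled Saa3-/- (4.92% and 6.07%). S1pr1 had the reverse order: it stood at 319 (212 to 461) and 220 (141 to 328) CPM in activated cells and was 1.66-fold lower in unmarked cells (0.601 times, 0.382 to 0.937).

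Gamma-delta T cells were at the other end. All 7 genes were past 2-fold higher in unmarked T cells, against 11.3% of all genes, with 14.4% lower. Lef1 was 23.7-fold higher (13.8 to 44.2), resting on 9 and 5 molecules in gamma-delta cells of the pools, and Ccr7 21.4-fold higher (10.4 to 51.0). Tcf7 had the smallest ratio, 3.46, and remained at 320 (251 to 402) and 284 (210 to 375) CPM in gamma-delta cells. Klf2, whose ratio between unmarked and cytotoxic T cells held equality over both pools, was 7.04-fold higher (4.27 to 12.1) in unmarked than in gamma-delta cells. S1pr1 was found as 7 molecules in gamma-delta cells of the pool labelled wild-type and 0 in those of the pool labelled Saa3-/-.

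In the Ikzf2/Ctla4/Il2ra-marker T cells, 6 of the 7 genes were past 2-fold lower than in unmarked cells, where 7.67% of all genes were higher in unmarked cells by that much and 11.8% lower. The pools differed here more than in any other T cell class, as described below with the pools.

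Thymocyte-like cells shared some of the set with unmarked T cells and lacked the rest. Tcf7 was higher in them, at 2109 (1912 to 2321) and 2150 (2004 to 2303) CPM, which was 2.02-fold (1.76 to 2.33) the level of unmarked T cells. Satb1 did not separate the classes: it stood at 1386 (1227 to 1560) and 1861 (1726 to 2004) CPM, a ratio of 1.05 (0.933 to 1.19). The other 5 genes were lower. Lef1 stood at 166 (114 to 233) and 204 (161 to 255) CPM, 4.3-fold lower (3.38 to 5.50) than in unmarked cells.

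The genes of exit and homing were near the lowest levels of any class in these cells. Klf2 stood at 105 (65.3 to 161) and 119 (87.0 to 160) CPM, 3.05-fold lower (2.17 to 4.29). S1pr1 was found as 4 and 5 molecules, 10.2-fold lower (4.81 to 24.0). Ccr7 was found as 0 and 3 molecules among 93 cells, against 96 molecules in 62 unmarked cells, 81.4-fold lower with an interval from 27.0 to 402. Bach2 stood at 40.2 (17.3 to 79.2) and 55.7 (34.5 to 85.1) CPM, 10.8-fold lower (7.15 to 16.8). Its molecules were unevenly spread, with 10 of the 29 in 1 cell.

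Thus 1 gene was past 2-fold higher and 5 lower in thymocyte-like cells, against 17% and 8% of all genes. The pools gave 0 higher and 4 lower of 6 compared in the pool labelled wild-type (20.5% and 12% of all genes), and 1 higher and 5 lower of 7 in the pool labelled Saa3-/- (17.4% and 7.77%). Tcf7 lay at the threshold, with log2 ratios of 0.97 and 1.03 in the pools. It was under 2-fold, at a log2 ratio of 0.91 to 0.97, when cells were weighed equally, when the scaling was by trimmed mean, when cycling thymocyte-like cells were left out, and when unmarked cells with immature markers were left out. None of these took any of the 5 lower genes under 2-fold.

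Within the thymocyte-like cells Tcf7 differed with the number of gate genes found, and so did Bach2, though on few molecules. Tcf7 stood at 1785 CPM (1583 to 2006) in cells with 2 gate genes, 2163 CPM (1982 to 2356) with 3 and 2413 CPM (2189 to 2654) with 4 or 5. Bach2 stood at 133 (82.3 to 203), 28.8 (11.6 to 59.4) and 5.69 (0.144 to 31.7) CPM, on 21, 7 and 1 molecules. The single cell with many Bach2 molecules, given above, can only be among those with 2 gate genes. The order of Bach2 without that cell was not tested. Cells with more gate genes also held more molecules on average, and the part of depth in these orders was not tested. Satb1 (1544, 1937 and 1503 CPM) and Lef1 (158, 223 and 176 CPM) did not rise or fall steadily with the number of gate genes. Among the remaining T cells, the 29 cells with a single gate gene held 716 CPM of Tcf7 and 197 CPM of Ccr7, and the 321 cells with none held 449 and 138 CPM. Cells with Mki67 or Top2a, which mark dividing cells, had 1394 CPM of Satb1 and 155 CPM of Lef1, against 2355 and 270 CPM in thymocyte-like cells without them. Tcf7 differed little between them, at 2204 and 1987 CPM. Cells with Cd4 and Cd8 together held 1914 CPM of Satb1, against 1059 CPM in the other thymocyte-like cells.

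B cells held the homing genes and Bach2, with Tcf7 and Lef1 far below unmarked T cells. Tcf7 stood at 38.2 (20.3 to 65.3) and 24.6 (12.3 to 44.0) CPM and Lef1 at 11.8 (3.20 to 30.1) and 22.4 (10.7 to 41.1) CPM in B cells. These were 34.6-fold (22.7 to 55.1) and 46.2-fold (26.8 to 86.1) below unmarked T cells. Tcf7 was at the level of smooth muscle cells (25.2 CPM, 17.5 to 35.0), which is read as background. Lef1 stood at 5.75 CPM (2.48 to 11.3) in smooth muscle cells, and at equal depth it was found in 2 of 166 B cells and 2 of 173 smooth muscle cells. Of the 14 Lef1 molecules in B cells 7 came from 1 cell.

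Klf2 was at the same level in B cells as in unmarked T cells, with 373 (311 to 444) and 315 (266 to 372) CPM and a ratio of 0.976 (0.757 to 1.27). Bach2, which in B cells holds back plasma cell differentiation, stood at 288 (234 to 351) and 519 (454 to 590) CPM, 1.30-fold below unmarked T cells (1.04 to 1.60). S1pr1 stood at 55.8 (33.6 to 87.2) and 148 (114 to 188) CPM, 1.47-fold below (0.968 to 2.20). Ccr7 stood at 173 (132 to 224) and 217 (176 to 265) CPM, 2.14-fold below (1.64 to 2.78). Satb1 stood at 214 (168 to 270) and 445 (385 to 512) CPM, 4.67-fold below (3.98 to 5.48).

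By count, 4 of the 7 genes were past 2-fold lower in B cells and none higher, against 13% and 14.8% of all genes. The pool labelled wild-type gave 6 lower (14.8% of all genes, with 19.7% higher) and the pool labelled Saa3-/- gave 4 (13%, with 14.1% higher). With trimmed-mean scaling the log2 ratios of all genes moved up by 0.26, the numbers of genes higher and lower went from 1018 and 895 to 1318 and 523, and Ccr7 was at −0.84, under 2-fold. Klf2 moved from −0.04 to 0.22 with it and so changed sign, and Bach2 from −0.38 to −0.11. Bach2 changed sign without cells of a second lineage, to 0.05, and S1pr1 at equal depth, from −0.57 to 0.27. Ccr7 was also under 2-fold at equal depth (−0.86), without cells of a second lineage (−0.87) and with cells weighed equally (−0.67).

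Within B cells, Satb1 was carried by the follicular-marker cells: 268 of its 272 molecules were in these 141 cells and 4 in the other 25, a ratio of 11.8 (4.56 to 43.6). By count 2 of 6 genes were past 2-fold higher in follicular-marker cells, the second being Tcf7 on 23 molecules against 1, where 12.3% of all genes were higher and 8.21% lower. For Tcf7 the intervals overlapped, at 34.4 (21.8 to 51.5) and 8.48 (0.215 to 47.2) CPM, and 12 of the 23 molecules were in 2 cells. B cells also held macrophage genes, at a sum of 4530 and 2394 CPM, and 23 of the 166 held at least 3 markers of a second lineage.

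**Figure D2:**
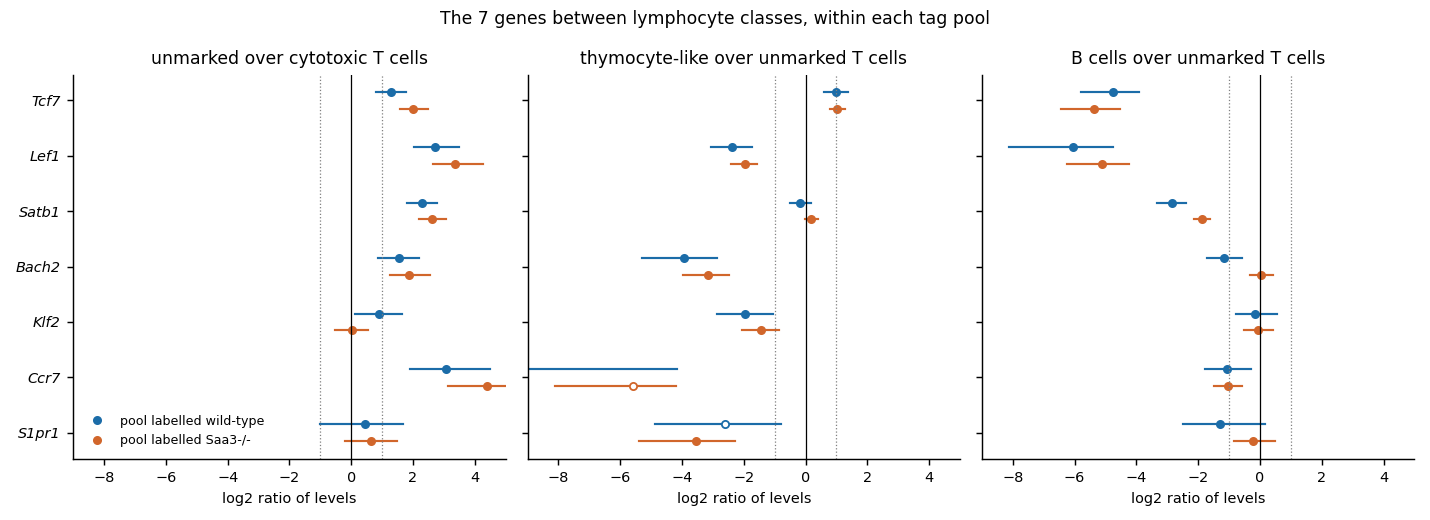
Log2 ratio of levels (x axis) for each gene (y axis) in 3 comparisons of classes, with 1 point for each tag pool and its 95% counting interval as a bar; dotted lines mark 2-fold, open points have fewer than 20 molecules in all or at most 3 on a side, and no point is drawn where a side held 0. Lef1, Satb1 and Ccr7 were higher in unmarked than in cytotoxic T cells in both pools, and Ccr7, Bach2 and Lef1 were lower in thymocyte-like cells.

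Ranked over the 14 classes with at least 20 cells, both pools together, unmarked CD4 T cells came the highest for Lef1 (930 CPM), Satb1 (2118 CPM), Bach2 (527 CPM) and Ccr7 (537 CPM). The unmarked T cells with CD8 (18 cells) or with neither (17 cells) were too few to be ranked. For Lef1 they stood at 683 (502 to 909) and 804 (595 to 1064) CPM, which overlapped the CD4 cells. For Ccr7 they stood at 407 (270.5 to 588) and 263 (150 to 427) CPM, which overlapped too. The ranks and gaps therefore hold only among the 14 classes. For Lef1, Satb1 and Ccr7 the interval did not reach that of the class ranked next, which was activated T cells for Lef1 and Ccr7 and thymocyte-like cells for Satb1. For Bach2 it overlapped that of follicular-marker B cells (438 CPM). Among the ranked classes Tcf7 had 3 separate steps, from thymocyte-like cells (2136 CPM) to unmarked CD4 T cells (1198 CPM) to activated T cells (677 CPM). The unranked CD8 and neither cells stood at 916 (704 to 1172) and 985 (752 to 1268) CPM, and overlapped both unmarked CD4 and activated T cells. Below these came Ikzf2/Ctla4/Il2ra-marker (359 CPM), cytotoxic (343 CPM) and gamma-delta (305 CPM) T cells, whose intervals overlapped. NK cells (122 CPM) were separate from gamma-delta T cells and from the classes below. S1pr1 was highest in activated (265 CPM) and unmarked CD4 (207 CPM) T cells, which overlapped, and natural killer cells stood at 8.73 CPM.

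Klf2, whose start-site window is printed above, had another order. Neutrophils were the highest of these classes at 732 CPM, with 1096 (739 to 1564) and 558 (382 to 788) CPM in the pools from 9 and 17 cells. From follicular-marker B cells (352 CPM) down to gamma-delta T cells (49.5 CPM) each class overlapped the next, and fibroblasts at 259 CPM and smooth muscle cells at 172 CPM lay within that range. Unmarked CD8 T cells, which held more Klf2 than unmarked CD4 T cells as given above, were not ranked. The few endothelial cells (7 and 4), the cell type in which KLF2 responds to blood flow, held 526 (301 to 855) and 1046 (804 to 1339) CPM, of which 1 cell of the pool labelled Saa3-/- gave 29 of 63 molecules.

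Outside the lymphocytes, Ccr7 was found at its highest level in mature dendritic cells, at 975 (776 to 1208) CPM in 8 cells of the pool labelled wild-type and 821 (554 to 1173) CPM in 3 cells of the pool labelled Saa3-/-. In the other dendritic cells it stood at 72.6 and 127 CPM, 9.54-fold lower (6.84 to 13.5). It was the only 1 of 3 genes compared that was past 2-fold between the dendritic classes, against 7.44% of all genes higher and 13.8% lower. A single cell in each pool gave 42 of 83 and 24 of 30 molecules.

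At equal depth, with each cell reduced to 1500 molecules and no cell left out, Tcf7 was found in 45 of 62 unmarked T cells (72.6%, 59.8 to 83.1), 31 of 90 cytotoxic (34.4%), 30 of 92 gamma-delta (32.6%), 85 of 93 thymocyte-like (91.4%) and 4 of 166 B cells (2.41%). In smooth muscle cells, which should lack it, it was found in 4 of 173 (2.31%). At full depth, with medians of 3657 and 3703 molecules in unmarked T cells and 8210 and 6657 in smooth muscle cells, the shares were 88.7% and 13.9%.

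Ccr7 was found at equal depth in 25 of 62 unmarked T cells (40.3%, 28.1 to 53.6), 47 of 166 B cells (28.3%), 3 of 90 cytotoxic (3.33%), 2 of 92 gamma-delta (2.17%), 2 of 93 thymocyte-like (2.15%) and 2 of 173 smooth muscle cells (1.16%). At full depth it was found in 61.3% of unmarked T cells, 83 of 166 B cells, 3.23% of thymocyte-like and 4.62% of smooth muscle cells, so the thymocyte-like cells were at the background. Lef1 was found at equal depth in 38 of 62 unmarked T cells (61.3%), 25 of 93 thymocyte-like (26.9%) and 2 of 173 smooth muscle cells (1.16%), and at full depth in 79.0%, 49.5% and 2.89%. S1pr1 was found at equal depth in 13 of 45 activated T cells (28.9%), 10 of 61 Ikzf2/Ctla4/Il2ra-marker T cells (16.4%), 26 of 166 B cells (15.7%), 7 of 62 unmarked T cells (11.3%) and 2 of 173 smooth muscle cells (1.16%). At full depth these were 37.8%, 31.1%, 28.3%, 27.4% and 4.05%.

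Counted per cell at equal depth, unmarked T cells held a mean of 3.50 of the 7 genes and 46 of 62 (74.2%) held at least 3. The share was 41 of 93 (44.1%) in thymocyte-like cells, 40 of 166 (24.1%) in B cells, 13 of 90 (14.4%) in cytotoxic and 3 of 92 (3.26%) in gamma-delta T cells. No cell of these classes held all 7. In the unmarked T cells 13 held Ccr7 and S1pr1 together at full depth, where the product of their shares gives 10.4, and 12 held Klf2 and S1pr1, where it gives 8.23. Cells of greater depth hold more of any gene, and these counts are descriptions.

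**Figure D3:**
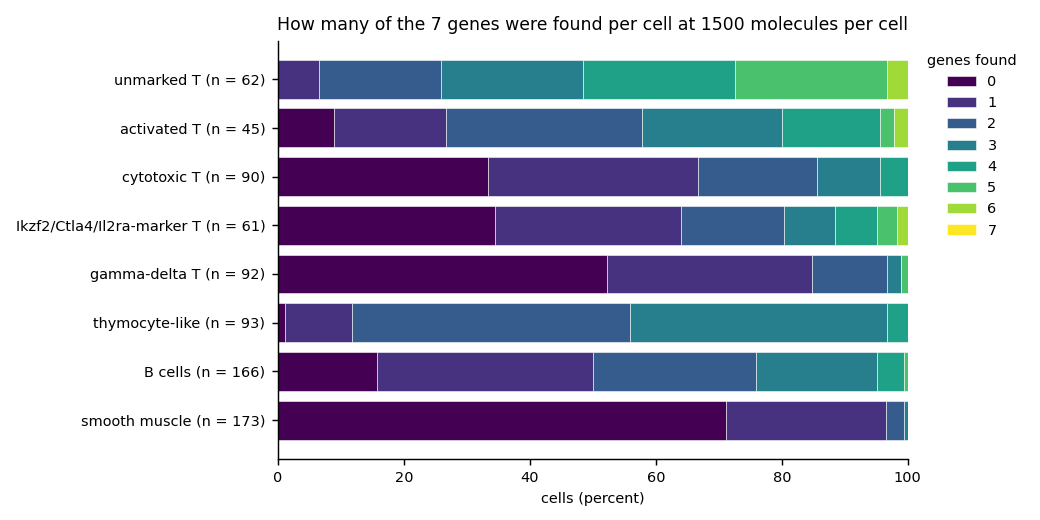
Percent of cells (x axis) in each class (y axis, with the number of cells) that held 0 to 7 of the genes, shown by colour, after each cell was reduced to 1500 molecules, both pools together. At least 3 genes were found in 74.2% of unmarked T cells and in 3.26% of gamma-delta T cells.

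Across all T cells apart from the thymocyte-like, each of the 7 genes stood higher in the pool labelled Saa3-/-, by less than 2-fold. Satb1 stood at 358 (320 to 401) CPM in the pool labelled wild-type and 709 (650 to 772) CPM in the pool labelled Saa3-/-, a ratio of 1.98 (1.72 to 2.28). Lef1 stood at 149 (125 to 177) and 286 (249 to 327) CPM, a ratio of 1.92 (1.53 to 2.40). For Klf2, S1pr1 and Tcf7 the ratios were 1.55 (1.24 to 1.95), 1.36 (0.995 to 1.85) and 1.31 (1.13 to 1.51). For Ccr7 and Bach2 they were 1.44 and 1.36, with intervals that reached 1.88 and 1.70 and did not hold equality. None of the 7 passed 2-fold, where 2.81% of all genes were higher and 3.08% lower, and their median log2 ratio was 0.53 against 0.00 over all genes. Leaving out the highest cell of each pool took Satb1 and Lef1 just past 2-fold.

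The makeup of the T cells differed between the pools in the same sense. Unmarked T cells were 17 of 169 (10.1%, 5.97 to 15.6) in the pool labelled wild-type and 45 of 181 (24.9%, 18.7 to 31.8) in the pool labelled Saa3-/-. Ikzf2/Ctla4/Il2ra-marker T cells were 24.9% (18.5 to 32.1) and 10.5% (6.44 to 15.9). When the subset levels of both pools were given the same weights, the ratios were 1.04 for Lef1, 1.06 for Tcf7, 1.00 for Bach2 and 1.12 for Ccr7, and 1.30 for Satb1, 1.29 for Klf2 and 1.24 for S1pr1. With 1 pool per genotype, genotype, mice and the handling of a pool cannot be told apart.

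Within the unmarked T cells themselves the ratios of the pools ran from 0.793 for Bach2 (0.537 to 1.19) to 1.29 for S1pr1 (0.573 to 3.27), and each interval held equality. None of 7 passed 2-fold, where 8.03% of all genes were higher and 5.67% lower. In cytotoxic T cells none of 6 passed it either (4.26% and 3.83% of all genes), but Tcf7 was lower in the pool labelled Saa3-/-, at 0.602 times (0.420 to 0.856), the reverse of its order over all T cells. In activated T cells Lef1 alone passed 2-fold, with a ratio of 2.19 (1.26 to 4.00) where 6.85% of all genes were higher and 6.7% lower. In gamma-delta T cells none of 4 did, where 3.77% were higher and 4.54% lower.

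In the Ikzf2/Ctla4/Il2ra-marker T cells, 3 of the 7 genes were past 2-fold higher in the pool labelled Saa3-/-, where 7.84% of all genes were higher and 11.3% lower. Satb1 stood at 184 (139 to 239) and 733 (573 to 925) CPM, a ratio of 3.99 (2.77 to 5.78). S1pr1 stood at 60.2 (35.7 to 95.1) and 196 (118 to 306) CPM, a ratio of 3.26 (1.62 to 6.59). Klf2 stood at 83.6 (54.1 to 123) and 269 (175 to 393) CPM, a ratio of 3.21 (1.78 to 5.80), with 13 of its 26 molecules in the pool labelled Saa3-/- in 1 cell. The cells that passed this gate were not alike in the pools: Mki67 stood at 598 and 31.0 CPM and Cd8a at 418 and 196 CPM, and their part in these ratios was not tested.

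In thymocyte-like cells the pools were close. Tcf7 had a ratio of 1.02 (0.905 to 1.15), and none of 5 genes compared passed 2-fold, where 8.85% of all genes were higher and 4.51% lower. Satb1 was 1.34-fold (1.17 to 1.55) higher in the pool labelled Saa3-/-. Mki67 stood at 1431 CPM in the pool labelled wild-type and 989 CPM in the other, and Satb1 was lower in cells with division genes, as given above. The part of that difference in the ratio was not tested.

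In B cells 2 of 6 genes compared were past 2-fold higher in the pool labelled Saa3-/-, where 4.8% of all genes were higher and 5.83% lower. S1pr1 was 2.65-fold higher (1.57 to 4.67), on 19 and 66 molecules, and was past 2-fold under each alternative processing, with log2 ratios from 1.02 to 1.63. Satb1 was 2.08-fold higher (1.58 to 2.75), but its log2 ratio of 1.05 was 0.41 without cells of a second lineage, 0.35 at equal depth and 0.48 with cells weighed equally. Bach2 was 1.80-fold higher (1.42 to 2.31), and its log2 ratio of 0.85 was 0.17, 0.11 and 0.08 under the same settings. Ccr7 and Klf2 had ratios of 1.25 (0.897 to 1.76) and 0.845 (0.660 to 1.08). Macrophage molecules were more abundant in B cells carrying the wild-type label, as given above, and so was Ighm, at 8763 against 2669 CPM; their part in these ratios was not tested. Follicular-marker cells were 80.0% and 87.4% of B cells, and among these alone S1pr1 had a ratio of 2.52 (1.45 to 4.61).

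**Figure D4:**
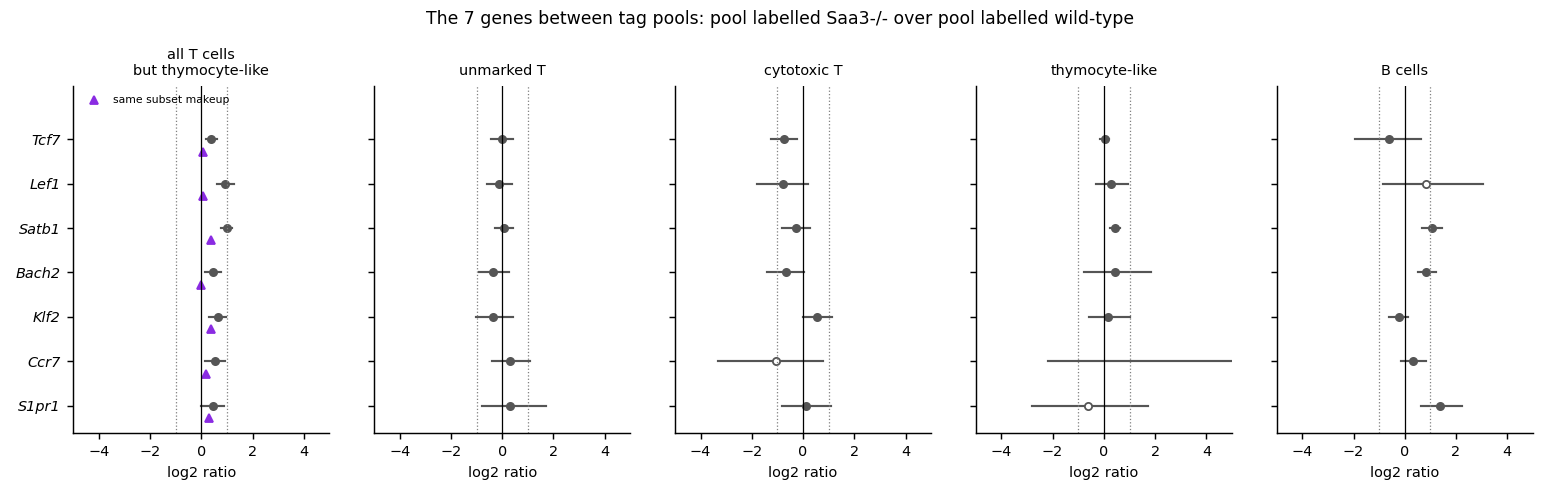
Log2 ratio of levels between the pools, Saa3-/- label over wild-type label (x axis), for each gene (y axis) in 5 groups of cells, with 95% counting intervals as bars; open points have fewer than 20 molecules, no point is drawn where a pool held 0, dotted lines mark 2-fold, and triangles give the ratio with the same weights for the T cell subsets in both pools. The ratios of all T cells lay between 1.31 and 1.98, those of unmarked T cells around equality, and S1pr1 in B cells at 2.65.

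Other genes of the naive T cell program, a list of 19, followed the set only in part. Between unmarked and cytotoxic T cells 8 of the 19 were past 2-fold higher and 1 lower, against 7.41% and 10.1% of all genes, with a median log2 ratio of 0.83 against 0.03 over all genes. Of the 8, Nsg2, Treml2, Igfbp4 and Actn1 had ratios past 2-fold in both pools, and the others in 1 pool only. Nsg2 was 7.51-fold higher, with 243 against 32.3 CPM, and Treml2 7.55-fold (75.1 against 9.95 CPM, on 17 and 4 molecules). Igfbp4 was 4.29-fold higher (384 against 89.5 CPM) and Actn1 3.24-fold (362 against 112 CPM). Ms4a4b was 4.90-fold lower. Foxo1, the factor upstream of Klf2 and Il7r, was 1.49-fold higher. Il7r, the interleukin-7 receptor, was lower in unmarked cells (181 against 274 CPM) and highest in gamma-delta T cells, at 1341 and 1437 CPM.

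In thymocyte-like cells 0 of 18 of these genes were past 2-fold higher than in unmarked T cells and 7 lower, among them Il7r at 34.7 CPM, against 17% and 8% of all genes. In B cells 0 of 18 were higher and 11 lower, against 14.8% and 13% of all genes. Between the pools in B cells 3 of the 13 compared were past 2-fold higher in the pool labelled Saa3-/- and 0 lower, against 4.8% and 5.83% of all genes. Between the pools in T cells 1 of 19 was past 2-fold higher and 0 lower, against 2.81% and 3.08% of all genes, with a median log2 ratio of 0.47 against 0.00 over all genes.

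A list of 18 other homing genes had the opposite balance between unmarked and cytotoxic T cells but not in each comparison. Of 11 that could be compared between unmarked and cytotoxic T cells, 1 was past 2-fold higher and 6 lower, against 7.41% and 10.1% of all genes, with a median log2 ratio of −1.33. Of 8 compared, 1 was higher and 2 lower in thymocyte-like than in unmarked T cells, against 17% and 8% of all genes. Of 12 compared, 4 were higher and 4 lower in B cells, against 14.8% and 13%. In unmarked against cytotoxic T cells, the integrin gene Itga4 was 4.76-fold lower (203 against 967 CPM), the oxysterol receptor gene Gpr183 4.72-fold lower (57.4 against 271 CPM) and Cxcr4 2.55-fold lower. The gene higher in unmarked than in cytotoxic T cells was Ccr9, a receptor of thymocytes and gut-homing T cells, at 212 against 12.4 CPM. It stood at 442 CPM in thymocyte-like cells. Cd69, whose protein removes S1PR1 from the cell surface, was alike in unmarked and cytotoxic T cells at 340 and 308 CPM. Of the CCR7 ligand genes, Ccl21a was found in no T cell class and as 1 molecule in B cells, and Ccl19 as 0 to 2 molecules in each of these classes.

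Across the 14 classes, on log2(CPM + 10), the set fell into groups. Pearson correlations were 0.91 between Tcf7 and Satb1, 0.85 between Tcf7 and Lef1 and 0.82 between Lef1 and Satb1. They were 0.84 between Bach2 and Ccr7, 0.81 between Bach2 and S1pr1 and 0.76 between Ccr7 and S1pr1. Klf2 had correlations between −0.20 and 0.40 with the others. Of 11751 other genes, those among the 3 most alike were Bcl11b (0.967), Lat and Camk4 for Tcf7, Dusp10 (0.951) and Prkcq for Lef1, and Pias2 (0.959) and Lsm14a for Satb1. They were Ahctf1 (0.927) and Smndc1 for Bach2, Dgkh (0.834), Nfat5 and Nedd9 for Klf2, Kdm5c (0.859) and Utp15 for Ccr7, and Usp24 (0.859), Dtx1 and Pced1b for S1pr1. All classes come from 1 capture and differ in depth, so these are descriptions.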

How the data were processed

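Live CD45+ arch cells of both genotypes were tagged, captured together and counted with the BD Rhapsody WTA Analysis Pipeline 1.11.1, per the file headers, on GRCm38 with GENCODE release M19 and intronic reads included. The deposited values are counts of molecules per gene and cell, not normalised. Which tag is which genotype was taken from the names of the deposited tables. Cells with more than 25% of molecules from mt- genes were left out. A lineage needed at least 3 of its 8 markers, each above its share over all kept cells, and ties stayed unassigned. Molecules were summed by class and pool and given as CPM, with exact Poisson, Clopper-Pearson or conditional binomial 95% intervals. Log2 ratios used a pseudocount of 0.5 molecules and genes with at least 20 molecules. No doublet caller was run, and cells with 3 markers of a second lineage were left out as an alternative, which in cytotoxic T cells removes mostly cells with NK genes that the gate shares. Python 3.11.15, numpy 2.4.6, scipy 1.17.1, matplotlib 3.10.9 and, for trimmed-mean scaling, edgeR 4.0.16 in R 4.3.3 were used, and the scripts were tested on simulated data. Positions come from GENCODE M21 and windows from RefSeq. The 7 genes, gates and gene lists were chosen with earlier results of these data known. Of the lists, genes past 2-fold in the same direction in both pools between unmarked and cytotoxic T cells were named, with Il7r, Foxo1, Cd69, Ccl19 and Ccl21a in any case. For likeness, genes among the 3 most correlated with each member were named. Some genes that these rules would name, and some marker values, are not reported here. Alternatives changed the filters, gates, depth, pseudocount, scaling and weights. Macrophage samples were not analysed here.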

Additional observations from a re-analysis of the deposited data

How the results depend on the processing

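Of 132 alternative values of the counts of the 7 genes past 2-fold, 124 were equal to the main count or within 1.5 times it and 8 were not. Many main counts were 0, and 0 against 0 was taken as equal. Some settings changed nothing: both other cell filters left unmarked over cytotoxic T cells at 401 genes higher and 547 lower. The 124 are therefore no measure of how firm the counts are. Of 462 alternative values of single log2 ratios, 17 changed sign, all of ratios under 2-fold, among them Tcf7 between the pools in B cells (−0.62 to 0.75 without cells of a second lineage). The count lower in B than in unmarked T cells was 3, not 4, in 4 settings, and 5 with unmarked cells holding immature markers left out. No paired analysis was possible because each genotype is 1 pool. The count of genes higher in thymocyte-like than in unmarked T cells was 0, not 1, with trimmed-mean scaling, with cells weighed equally, with unmarked cells holding immature markers left out and with cycling thymocyte-like cells left out, the last 2 chosen after seeing the data. The count higher in the pool labelled Saa3-/- was 2, not 0, in T cells without the highest cell of each side, and 1, not 2, in B cells without cells of a second lineage, at 1500 molecules per cell and with cells weighed equally. Of 193 alternatives for the 17 ratios past 2-fold, 13 took a ratio under it or under the molecule minimum, among them S1pr1 in thymocyte-like cells at 1500 molecules per cell and with a minimum of 50 molecules. Trimmed-mean scaling moved the log2 ratios of all genes by −0.10 for unmarked over cytotoxic T cells and by 0.26 for B over unmarked T cells, where the genes lower went from 895 to 523. Counts over all genes were smaller where fewer were tested: for unmarked over cytotoxic T cells 401 higher and 547 lower became 204 and 253 at 1500 molecules per cell, and 120 and 208 with a minimum of 50 molecules. Between the pools in B cells 345 lower became 211 without cells of a second lineage. Depth limits S1pr1 and Ccr7, with 3 to 12 molecules in several classes, and Lef1 in B cells, with 14.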
